A study of Mus musculus with 48 samples.

Results

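EphA receptors and ephrin-A ligands were followed across neurons of the mouse hippocampus. The 10 genes Epha3, Epha4, Epha5, Epha6, Epha7, Epha8, Epha10, Efna2, Efna3 and Efna5 were taken by symbol, and all 10 were found among the 37620 genes of the count table. The series asked how gene expression varies among CA1 pyramidal cells by place and by target. The data were 48 RNA sequencing libraries from 16 neuronal populations, with 3 libraries per population. Fluorescent neurons had been picked by hand from microdissected slices, their RNA amplified and sequenced. From CA1 came parvalbumin (PV) interneurons, somatostatin (SST) interneurons, superficial, deep, proximal, distal, dorsal, intermediate and ventral pyramidal cells. Also from CA1 came dorsal pyramidal cells projecting to the postsubiculum, and ventral pyramidal cells projecting to the amygdala or to the nucleus accumbens. The other populations were CA3 pyramidal cells and granule cells of the dentate gyrus (DG), each from a dorsal and a ventral site. The strain, the age, the fluorescent lines and the tracers are not given in the sources used here, and each library holds RNA of pooled cells. In such pools, fewer cells that express a gene and less of its RNA per cell cannot be told apart. The series describes biological replicates without naming animals, so the p-values measure the spread between these libraries.

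Eph receptors are receptor tyrosine kinases that are activated by ephrins on the surface of a neighbouring cell, so signalling needs contact. EphA receptors mainly bind ephrin-A ligands, which are held on the membrane by a lipid anchor, and signals can pass into both cells. In development, opposing gradients of EphA and ephrin-A guide axons to ordered targets, including the projection of the hippocampus to the septum. In the adult mouse hippocampus, EphA4 on dendritic spines and ephrin-A3 on astrocytes are known for regulating spine shape and synaptic plasticity.

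Levels are given as CPM, the reads of a gene scaled to a common library total, which compares a gene between libraries. FPKM, the authors' deposited values, also account for gene length and are used where genes are compared with each other. Differences are log2 fold changes with their standard errors from edgeR, and a gene is called at a Benjamini-Hochberg adjusted p below 0.05 over all genes tested. Libraries held 5.12 to 31.98 M gene reads. CA1 depth fell along the axis, with a mean of 25.9 M reads in dorsal, 8.58 M reads in intermediate and 7.01 M reads in ventral CA1. In CA3 and DG it ran the other way, at 23.3 M reads in dorsal and 27.2 M reads in ventral CA3, and at 7.17 M reads in dorsal and 15.7 M reads in ventral DG. Prox1, a granule cell factor, averaged 1198 CPM in dorsal and 1393 CPM in ventral DG and at most 14.9 CPM elsewhere. Wfs1, a dorsal CA1 marker, averaged 1425 CPM in dorsal and 89.7 CPM in ventral CA1, and Gad2 averaged 2731 CPM in PV and 4723 CPM in SST interneurons. Fibcd1, a CA1 marker, averaged 73.6 to 628 CPM in CA1 pyramidal groups and at most 14.6 CPM elsewhere, and Cpne4, a CA3 marker, 744 CPM in dorsal and 354 CPM in ventral CA3. Another listed CA3 marker, Iyd, averaged 48.6 CPM in dorsal and 0.526 CPM in ventral CA3, and Pou3f1, listed for CA1, had 0 reads in all libraries. The CA3 list of Iyd, Grik4 and Cpne4 summed to 801 to 930 CPM in dorsal and 346 to 535 CPM in ventral CA3. It was also present outside CA3, at 119 to 232 CPM in dorsal DG, 218 to 282 CPM in ventral DG and 68.0 to 189 CPM in SST interneurons.

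The promoters of the 4 receptors that carried most of the differences along the long axis are shown, since these genes were higher in dorsal cells of CA1 and CA3 and, except for Epha6, of the DG. Each is the 250 bases before the first listed transcription start in the RefSeq promoter table (GRCm38.p6), 5′ to 3′ on the strand of the gene. Capitals mark the GC box GGGCGG and the CCAAT box, each on either strand. TATAAA and the cAMP response element TGACGTCA were also searched on both strands, with no match in these 250 bases of any of the 10 genes.
Epha7 (chr4:28812881-28813130, plus strand): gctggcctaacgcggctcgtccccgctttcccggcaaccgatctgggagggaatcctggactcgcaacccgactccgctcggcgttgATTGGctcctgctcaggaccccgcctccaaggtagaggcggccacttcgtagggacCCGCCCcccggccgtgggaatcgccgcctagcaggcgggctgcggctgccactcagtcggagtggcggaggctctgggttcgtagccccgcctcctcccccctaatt
Epha6 (chr16:60605532-60605781, minus strand): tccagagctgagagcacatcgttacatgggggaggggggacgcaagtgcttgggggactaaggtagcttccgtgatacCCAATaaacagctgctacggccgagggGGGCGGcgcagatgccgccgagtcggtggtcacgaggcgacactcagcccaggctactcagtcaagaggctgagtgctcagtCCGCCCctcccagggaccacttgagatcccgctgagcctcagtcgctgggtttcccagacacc
Epha5 (chr5:84417383-84417632, minus strand): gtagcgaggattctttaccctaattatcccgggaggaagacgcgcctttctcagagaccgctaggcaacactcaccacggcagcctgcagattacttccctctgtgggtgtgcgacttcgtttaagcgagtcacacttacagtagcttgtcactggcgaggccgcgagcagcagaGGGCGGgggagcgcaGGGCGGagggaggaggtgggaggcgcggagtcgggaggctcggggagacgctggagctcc
Epha4 (chr1:77515089-77515338, minus strand): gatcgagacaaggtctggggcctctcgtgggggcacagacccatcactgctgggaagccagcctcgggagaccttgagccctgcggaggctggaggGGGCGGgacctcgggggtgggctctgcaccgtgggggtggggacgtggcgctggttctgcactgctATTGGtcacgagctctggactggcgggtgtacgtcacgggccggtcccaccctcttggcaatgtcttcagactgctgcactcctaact
GGGCGG was found before 9 of the 10 genes, Epha3 being the exception, and in 32.75% of the 32841 promoters of the table. CCAAT was found before 5 of the 10 genes and in 33.86% of all promoters. TATAAA was present in 12.37% and TGACGTCA in 1.547% of all promoters. Over the 12 starts of the 10 genes, the GC content ran from 62.4% to 84.0%, with a median of 66.4% against 52.4% over all promoters. A match is a stretch of letters in this window and was not tested as a binding site.

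By FPKM, Epha4, Epha5, Epha6 and Epha7 were the most abundant receptors in each of the 16 populations. Efna3 was the most abundant ligand member in all but SST interneurons, where Efna5 made up 51.1% and Efna3 46.8% of the ligand FPKM. On the FPKM scale, Epha7 averaged 253, Epha6 209, Epha4 188 and Epha5 80.8 FPKM in dorsal CA1. Epha3 and Epha10 averaged 5.72 and 4.35 FPKM there, and Epha8 0.172 FPKM. Among ligands, Efna3 averaged 25.0 FPKM and Efna2 1.35 FPKM in dorsal CA1, while Efna5 had 1 read over the 3 libraries. In a test of any difference among the 16 populations, 9 of the 10 members were called, beside 65.3% of all genes tested. Epha8 was not called (adjusted p = 0.140). The other class A genes were low. Epha1, Epha2 and Efna4 averaged at most 1.29, 0.203 and 0.607 CPM in any population. Efna1, the ligand first found in blood vessel lining cells, had 15.3, 0.951 and 11.0 CPM in dorsal DG and 7.59, 5.45 and 3.71 CPM in ventral DG, and averaged at most 0.465 CPM elsewhere. Except for Epha8, Efna2 and Efna5, each member overlaps another annotated gene, for Epha5, Epha6, Epha7, Epha10 and Efna3 on the opposite strand, and whether reads were counted by strand is not given in the sources used here, so reads of such pairs may be mixed.

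**Figure D1:**
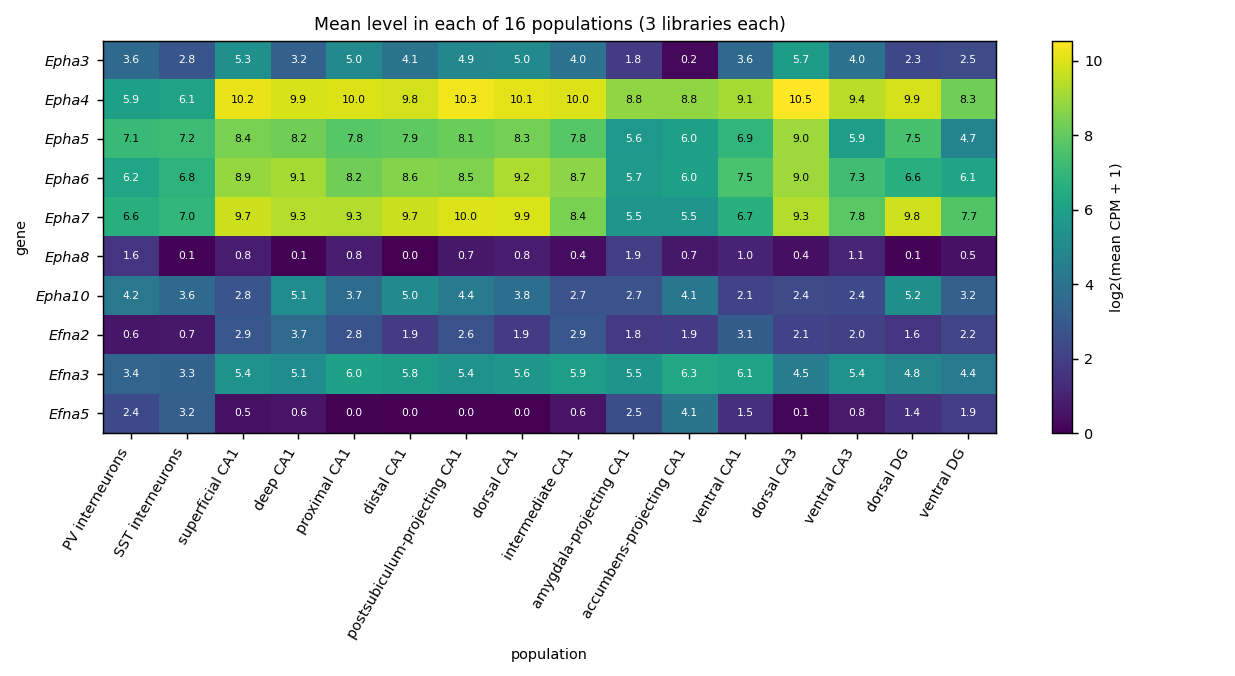
Mean level of each of the 10 genes (rows) in each of the 16 populations (columns), as log2 of the mean CPM plus 1 over 3 libraries. Epha4 is highest in dorsal CA3 at 1481 CPM, and Efna5 is highest in accumbens-projecting CA1 at 15.7 CPM.

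Summed over the 7 receptors, the FPKM level was highest in dorsal CA1, at 741 ± 41.5 FPKM (SD, n = 3). It was 467 ± 67.4 FPKM in intermediate and 229 ± 38.6 FPKM in ventral CA1. Dorsal CA3 reached 735 ± 50.6 FPKM against 251 ± 64.2 FPKM in ventral CA3, and dorsal DG 519 ± 63.6 FPKM against 150.1 ± 6.24 FPKM in ventral DG. The dorsal populations held more receptor RNA in all 3 regions, and their libraries did not overlap with those of the ventral populations. The summed ligand level ran the other way along CA1, at 26.4 ± 1.92 FPKM in dorsal, 33.9 ± 1.53 FPKM in intermediate and 42.0 ± 3.59 FPKM in ventral CA1, again without overlap between positions. No p and no share over all genes is given for these sums. By CPM, the libraries of Efna3, the main ligand there, overlapped between dorsal (42.6 to 55.5 CPM) and intermediate CA1 (47.9 to 62.7 CPM). Epha7 made up 34.1% of the receptor sum in dorsal CA1 and 11.6% in ventral CA1, where Epha4 made up 43.4%. Efna3 made up 94.9% of the ligand sum in dorsal and 85.5% in ventral CA1.

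**Figure D2:**
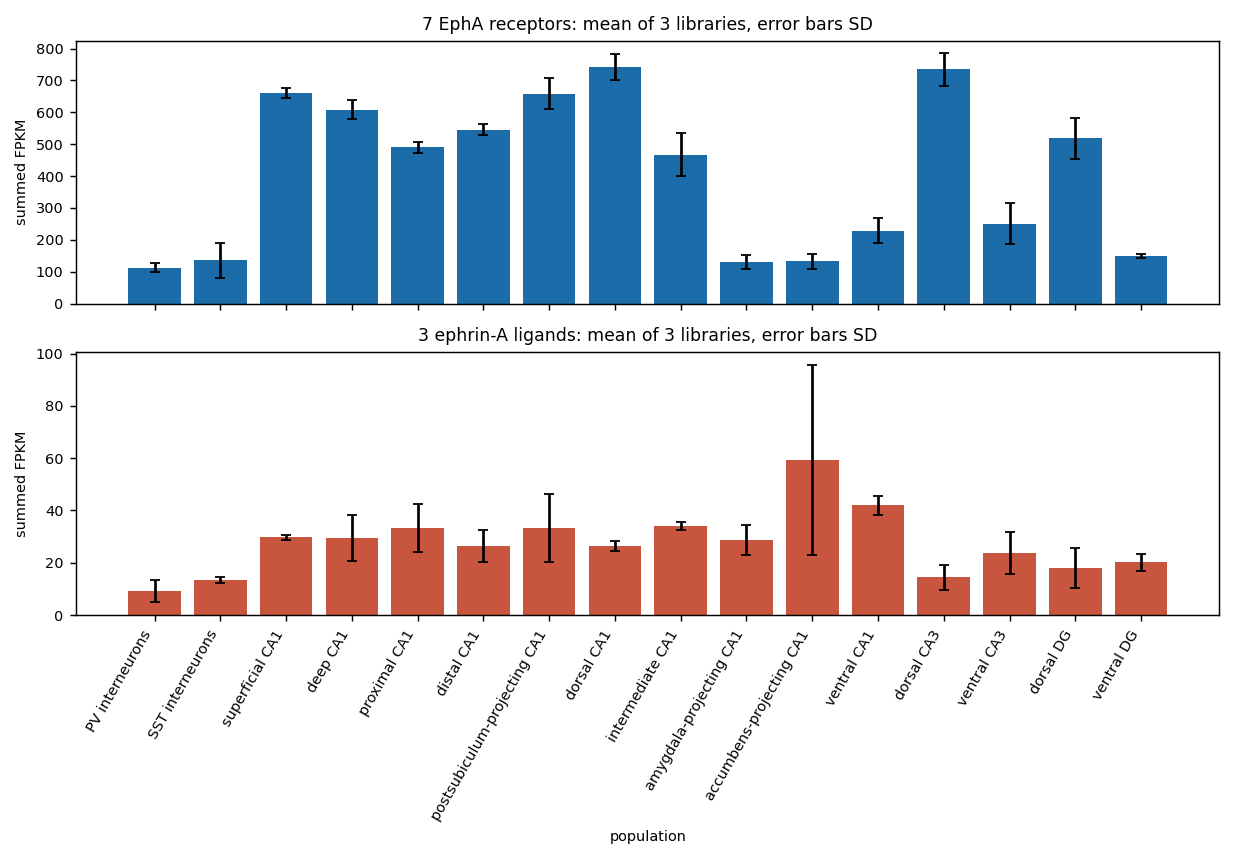
Summed FPKM of the 7 EphA receptors (upper panel) and of the 3 ephrin-A ligands (lower panel) in each population, with bars at the mean of 3 libraries and error bars of 1 SD. The receptor sum is 741 FPKM in dorsal CA1 and 229 FPKM in ventral CA1, and the ligand sum is most variable in accumbens-projecting CA1.

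Along the long axis of CA1, 6 receptors were higher in dorsal than in ventral cells, and Efna3 was lower. These 7 calls were of 9 members tested, beside 15.1% of all genes tested, 7.17% higher and 7.95% lower. All dorsal libraries lay on 1 side of all ventral ones for 31.5% of all genes. The median log2 fold change of the 9 members was 1.34, and that of all genes tested was -0.01. Epha7, which is also known for isoforms without the kinase domain, had 1034, 953 and 951 CPM in dorsal CA1. It had 466, 252 and 310.1 CPM in intermediate and 96.0, 132 and 77.3 CPM in ventral CA1. The 3 positions did not overlap, and each step was called. The log2 fold change of Epha7 was 3.23 ± 0.25 (SE, adjusted p = 9.58e-06) for dorsal over ventral CA1. It was 1.49 ± 0.23 (SE, adjusted p = 0.00472) for dorsal over intermediate and 1.74 ± 0.24 (SE, adjusted p = 0.00217) for intermediate over ventral CA1. These 3 comparisons share libraries.

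Epha6, one of the less studied receptors of the class, had 667, 566 and 583 CPM in dorsal CA1, 442, 363 and 442 CPM in intermediate CA1 and 213, 204 and 119 CPM in ventral CA1. No library of 1 position overlapped with another position. The log2 fold change was 1.72 ± 0.17 (SE, adjusted p = 2.52e-06) for dorsal over ventral and 1.20 ± 0.17 (SE, adjusted p = 0.000403) for intermediate over ventral CA1. Dorsal over intermediate CA1 was not called, at 0.52 ± 0.17 (SE, adjusted p = 0.10), although DESeq2 called it (adjusted p = 0.0489) and so did edgeR with no filter on low counts (adjusted p = 0.000357). Epha5, a receptor in the mapping of hippocampal axons onto the septum, had 339, 308 and 304 CPM in dorsal CA1. It had 233, 200.5 and 239 CPM in intermediate and 136, 128 and 101 CPM in ventral CA1, again without overlap. Its log2 fold change was 1.34 ± 0.13 (SE, adjusted p = 6.41e-07) for dorsal over ventral and 0.86 ± 0.13 (SE, adjusted p = 0.000403) for intermediate over ventral CA1, the second of which was lost in 1 fit of all 48 libraries (adjusted p = 0.0630). The smaller step of Epha5 from dorsal to intermediate, 0.47 ± 0.13 (SE, adjusted p = 0.0381), was lost when any 1 of the 6 dorsal and intermediate libraries was left out (adjusted p = 0.0572 to 0.199).

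Epha4, which binds ephrin-A and some ephrin-B ligands, was the most abundant receptor in ventral CA1 and differed between intermediate and ventral cells but not detectably between dorsal and intermediate ones. Its libraries had 1136, 1186 and 985 CPM in dorsal, 1112, 862 and 1015 CPM in intermediate and 557, 577 and 517 CPM in ventral CA1. Dorsal and intermediate libraries overlapped, and both lay above all ventral libraries. The log2 fold change was 0.96 ± 0.10 (SE, adjusted p = 1.47e-06) for dorsal over ventral and 0.84 ± 0.10 (SE, adjusted p = 4.19e-05) for intermediate over ventral CA1. Between dorsal and intermediate CA1 it was 0.12 ± 0.10 (SE, adjusted p = 0.632), not called. In all, 2 of 9 members tested were called for dorsal over intermediate CA1 (Epha5 and Epha7, both higher), beside 4.93% of all genes tested, 1.69% higher, and 23.5% with libraries fully apart. For intermediate over ventral CA1, 4 of 9 were called (Epha4, Epha5, Epha6 and Epha7), all higher, beside 5.03% of all genes, 3.12% higher, and 20.2% with libraries fully apart.

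Epha3, a receptor that binds ephrin-A5, had 29.4, 30.3 and 34.8 CPM in dorsal, 17.5, 8.51 and 19.3 CPM in intermediate and 11.1, 12.5 and 9.70 CPM in ventral CA1. Dorsal libraries were above the rest, and intermediate and ventral libraries overlapped. Its log2 fold change for dorsal over ventral CA1 was 1.46 ± 0.33 (SE, adjusted p = 0.00401), and it was not called in 1 fit of all 48 libraries (adjusted p = 0.304). Epha10, whose kinase domain is held to be inactive, had 13.3, 11.0 and 14.5 CPM in dorsal, 5.50, 7.48 and 3.22 CPM in intermediate and 2.15, 6.78 and 1.27 CPM in ventral CA1. Its log2 fold change was 1.92 ± 0.57 (SE, adjusted p = 0.0274) for dorsal over ventral CA1. That call was lost without any 1 dorsal library, ventral replicate 1 or ventral replicate 3 (adjusted p = 0.0510 to 0.110), and in 1 fit of all 48 libraries (adjusted p = 0.0883). Epha8 had at most 1.59 CPM in any library of the 3 positions and was not called.

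**Figure D3:**
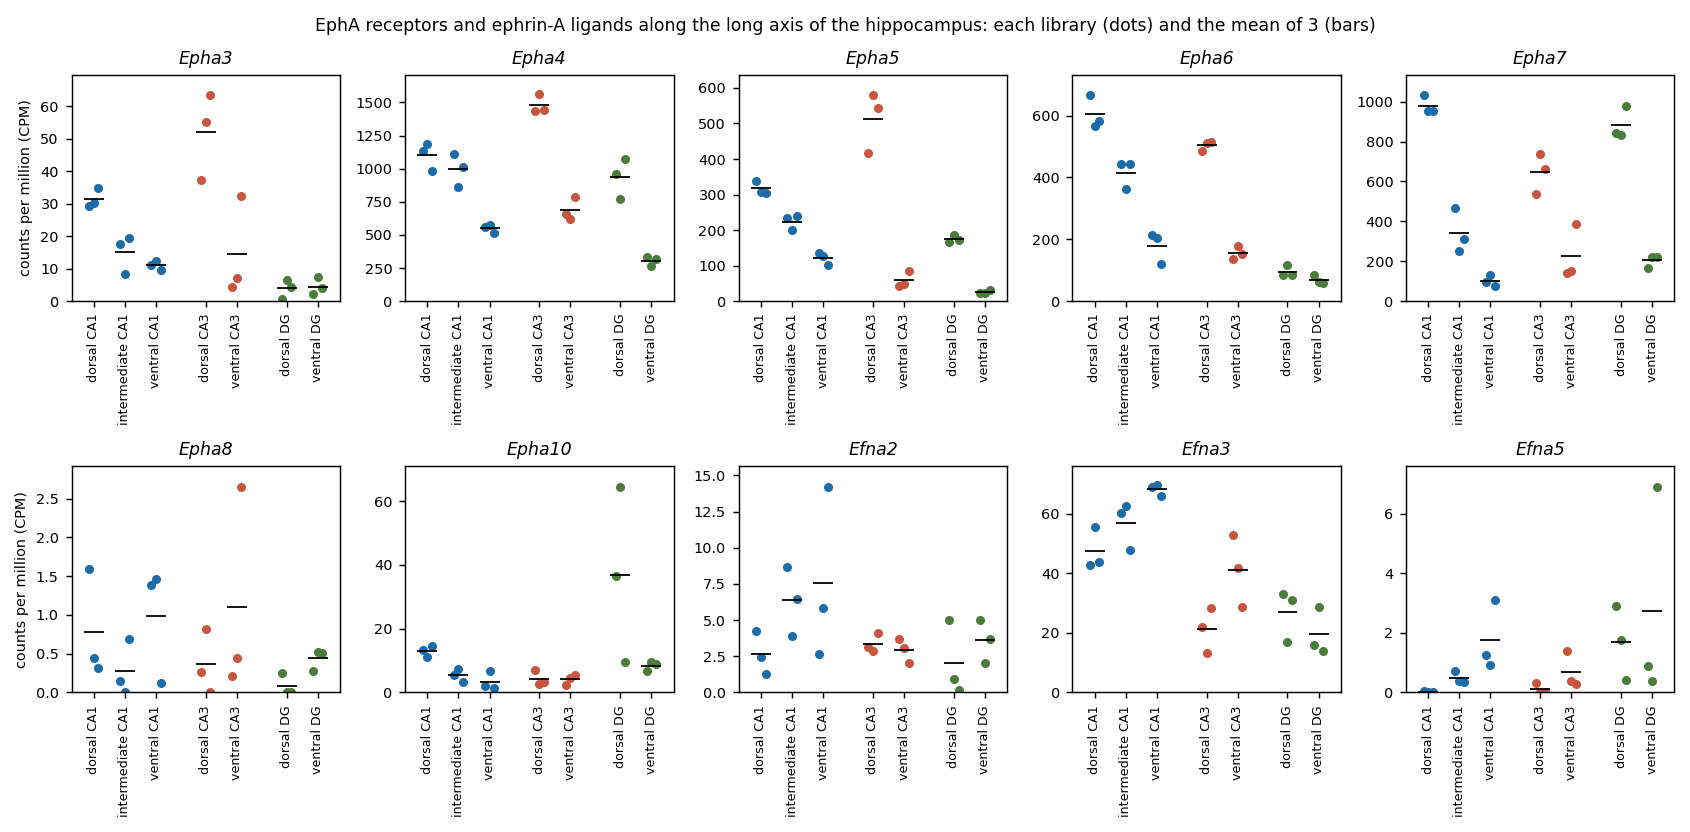
CPM of each of the 10 genes in each library (dots) of dorsal, intermediate and ventral CA1, dorsal and ventral CA3 and dorsal and ventral DG, with bars at the mean of 3 and a linear axis from 0 in each panel. Epha7 averages 980 CPM in dorsal and 102 CPM in ventral CA1, and Epha5 averages 513 CPM in dorsal and 58.4 CPM in ventral CA3.

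Of the ligands, Efna3 had 42.6, 55.5 and 43.8 CPM in dorsal, 60.3, 62.7 and 47.9 CPM in intermediate and 69.0, 69.7 and 65.8 CPM in ventral CA1. All dorsal libraries were below all ventral ones. The log2 fold change for dorsal over ventral CA1, -0.57 ± 0.19 (SE, adjusted p = 0.0436), was close to the threshold. The call was lost without dorsal replicate 1 or 3, any 1 ventral library or intermediate replicate 1 (adjusted p = 0.0598 to 0.178), and with no filter, in 1 fit of all 48 libraries or with the replicate block (adjusted p = 0.0508 to 0.680). Efna2, best known from retinal maps, had 4.24, 2.46 and 1.27 CPM in dorsal and 2.66, 5.87 and 14.2 CPM in ventral CA1, with overlap and no call. Efna5, the ligand with the strongest known role in topographic maps, did not pass the filter on low counts in CA1. Its reads numbered 1, 0 and 0 in dorsal, 5, 4 and 3 in intermediate, and 10, 5 and 27 in ventral CA1. The ratio of ventral to dorsal CA1 was 147, with a 95% interval of 24.9 to 5928 that covers counting error only. Dorsal over ventral CA1 was called lower for Efna5 with no filter (adjusted p = 0.0139) and in 1 fit of all 48 libraries (adjusted p = 0.0126). Gad2, a marker of inhibitory neurons, averaged 0.492 CPM in dorsal and 12.9 CPM in ventral CA1. The 4 GABAergic markers summed to 0.516 to 1.99 CPM in dorsal CA1, with Gad1 and Slc32a1 at 0, and to 16.9 to 35.3 CPM in ventral CA1. Their part in the Efna5 difference was not tested.

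In CA3, 4 of 10 members were called higher in dorsal than in ventral cells, beside 4.97% of all genes tested, 2.5% higher, and 27.9% with libraries fully apart. Epha5 led, with 416, 579.5 and 543 CPM in dorsal CA3 and 42.4, 48.4 and 84.3 CPM in ventral CA3, a log2 fold change of 3.15 ± 0.23 (SE, adjusted p = 2.17e-08). The lowest dorsal library was far above the highest ventral one. Epha4 had 1437, 1564 and 1443 CPM in dorsal and 657, 622 and 789 CPM in ventral CA3, at 1.12 ± 0.13 (SE, adjusted p = 9.66e-06). Epha6 had 485, 513 and 515 CPM in dorsal and 137, 178 and 153 CPM in ventral CA3, at 1.71 ± 0.20 (SE, adjusted p = 8.63e-06). Both were separate in all libraries. Epha7 had 535, 739.8 and 663 CPM in dorsal and 139, 153 and 387 CPM in ventral CA3, at 1.53 ± 0.28 (SE, adjusted p = 0.00135), also without overlap. Ventral replicate 3 was the highest ventral library for Epha3 (4.39, 7.18 and 32.4 CPM), Epha4, Epha5, Epha7, Epha8 and Epha10. Epha3 was not called in CA3 (1.84 ± 0.64 SE, adjusted p = 0.125) except by DESeq2 (adjusted p = 0.0487), nor was Efna3 (-0.93 ± 0.34 SE, adjusted p = 0.151). All dorsal Efna3 libraries lay below all ventral ones by CPM, but only just (at most 28.5 CPM against at least 28.8 CPM). By FPKM they overlapped (up to 15.9 FPKM in dorsal and from 14.2 FPKM in ventral CA3). The CA1 list of Fibcd1, Mpped1, Wfs1 and Pou3f1 summed to 10.7 to 20.7 CPM in dorsal and 61.4 to 85.5 CPM in ventral CA3. Sst was 4.97 to 15.3 CPM in dorsal and at most 0.207 CPM in ventral CA3. The part of these markers in the differences was not tested.

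In granule cells of the DG, 4 of 10 members were called, all higher in dorsal cells, beside 19.4% of all genes tested, 8.71% higher, and 29.8% with libraries fully apart. Epha5 had 167, 187 and 173 CPM in dorsal and 21.7, 21.7 and 31.9 CPM in ventral DG, a log2 fold change of 2.84 ± 0.23 (SE, adjusted p = 6.12e-08). Epha7 had 843, 832 and 979 CPM in dorsal and 168, 222 and 223 CPM in ventral DG, at 2.15 ± 0.28 (SE, adjusted p = 2.11e-05). Epha4 had 959, 769 and 1077 CPM in dorsal and 329.7, 262 and 319.6 CPM in ventral DG, at 1.66 ± 0.13 (SE, adjusted p = 4.85e-08). These 3 receptors were separate in all libraries. Epha10 had 36.4, 64.6 and 9.54 CPM in dorsal and 6.81, 9.46 and 8.85 CPM in ventral DG, at 2.17 ± 0.64 (SE, adjusted p = 0.0226). Its dorsal libraries varied widely, and the call was lost without dorsal replicate 2 or any 1 ventral library (adjusted p = 0.0622 to 0.112). Epha6 was low in granule cells, with 84.2, 118 and 83.1 CPM in dorsal and 85.4, 63.3 and 60.1 CPM in ventral DG, and was not called (0.48 ± 0.20 SE, adjusted p = 0.0874).

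The dorsal over ventral difference itself was set against that of the other regions by an interaction in edgeR. CA1 and CA3 differed for 2 of 10 members, beside 3.52% of all genes tested, 1.31% larger and 2.21% smaller in CA1. The step of Epha5 was smaller in CA1 than in CA3, with a CA1 minus CA3 difference of -1.79 ± 0.31 (SE, adjusted p = 0.00111) on the log2 scale. That of Epha7 was larger in CA1, at 1.72 ± 0.39 (SE, adjusted p = 0.0120), with an adjusted p of 0.0955 when no filter was used. CA1 and DG differed for 3 of 10 members, beside 9.71% of all genes, 5.09% larger and 4.62% smaller in CA1. The step of Epha6 was larger in CA1, with a CA1 minus DG difference of 1.26 ± 0.28 (SE, adjusted p = 0.00576), and that of Epha5 was smaller, at -1.48 ± 0.31 (SE, adjusted p = 0.00405). Epha4 also stepped less in CA1, at -0.68 ± 0.18 (SE, adjusted p = 0.0228). The Epha4 call was lost without ventral CA1 replicate 1 or 2, dorsal CA1 replicate 3, dorsal DG replicate 3 or ventral DG replicate 2 (adjusted p = 0.0515 to 0.0789), and in 1 fit of all 48 libraries (adjusted p = 0.112). Both tests share the CA1 libraries.

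**Figure D4:**
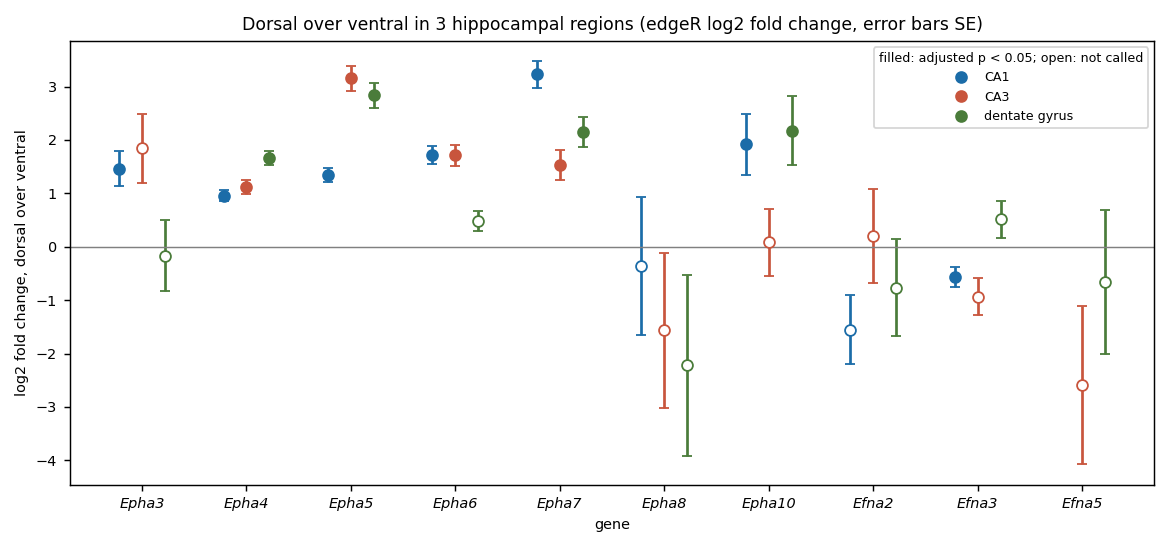
Log2 fold change of dorsal over ventral for each gene in CA1, CA3 and DG, with error bars of 1 SE and filled points where the adjusted p was below 0.05. Epha4, Epha5 and Epha7 are filled in all 3 regions, Efna5 was not tested in CA1, and the Epha5 point in CA1 (1.34) lies below those in CA3 (3.15) and DG (2.84).

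Between regions, each contrast averaged the dorsal and ventral log2 levels of a region. CA1 over CA3 gave 2 calls of 10, beside 13.5% of all genes tested, 5.34% higher and 8.15% lower. Efna3 was higher in CA1 (0.95 ± 0.24 SE, adjusted p = 0.00947) and Epha4 lower (-0.37 ± 0.09 SE, adjusted p = 0.00750). CA1 over DG gave 7 calls of 10, beside 33.1% of all genes, 17.4% higher and 15.7% lower, and 10.8% with all libraries apart. Epha6 had the smallest p, at 2.02 ± 0.14 (SE, adjusted p = 5.87e-10), with all 6 CA1 libraries above all 6 DG libraries by CPM. The gap was narrow, with at least 119 CPM in ventral CA1 and up to 118 CPM in dorsal DG. By FPKM these libraries overlapped (from 44.9 FPKM in ventral CA1, up to 53.1 FPKM in dorsal DG). Epha3 (2.16 ± 0.47 SE, adjusted p = 0.00133) and Efna3 (1.31 ± 0.24 SE, adjusted p = 0.000281) were also higher in every CA1 library than in any DG library. Epha5 (1.56 ± 0.16 SE, adjusted p = 1.09e-07) and Epha4 (0.55 ± 0.09 SE, adjusted p = 8.57e-05) were higher in CA1 with overlap. Epha10 (-1.42 ± 0.45 SE, adjusted p = 0.0202) and Efna5 (-3.50 ± 1.09 SE, adjusted p = 0.0176) were lower in CA1. Efna5 had 2.89, 1.77 and 0.409 CPM in dorsal DG and 0.893, 0.394 and 6.91 CPM in ventral DG, and its libraries overlapped with those of ventral CA1. The 4 GABAergic markers summed to 109 to 147 CPM in dorsal and 121 to 157 CPM in ventral DG, with Slc32a1 at 0 in ventral DG. In CA1 they summed to 0.516 to 1.99 CPM in dorsal libraries, with Gad1 and Slc32a1 at 0, and 16.9 to 35.3 CPM in ventral libraries. Their part in the differences was not tested. The Epha10 call was lost without dorsal CA1 replicate 2, ventral CA1 replicate 1 or 3, or dorsal DG replicate 2 (adjusted p = 0.0502 to 0.0743). The Efna5 call was lost without dorsal CA1 replicate 2 or ventral DG replicate 3 (adjusted p = 0.0518 and 0.101).

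CA3 over DG gave 6 calls of 10, beside 36.5% of all genes, 19.6% higher and 16.9% lower, and 13.6% with all libraries apart. Epha6, at 1.78 ± 0.14 (SE, adjusted p = 3.17e-09), was higher in every CA3 library than in any DG library by CPM. By FPKM its libraries overlapped (from 45.8 FPKM in ventral CA3, up to 53.1 FPKM in dorsal DG). Epha3, at 2.72 ± 0.48 (SE, adjusted p = 0.000140), was higher in CA3 with overlap. Epha4 (0.92, adjusted p = 1.01e-07) and Epha5 (1.38, adjusted p = 5.66e-07) were higher too, with overlap between libraries. Epha10 (-2.06 ± 0.46 SE, adjusted p = 0.00128) and Efna5 (-2.96 ± 1.04 SE, adjusted p = 0.0304) were lower in CA3. In dorsal CA3, the 4 GABAergic markers summed to 6.86 to 7.72 CPM, with Gad2 and Slc32a1 at 0. In ventral CA3 they summed to 5.98 to 14.96 CPM, with Slc32a1 at 0. Their DG sums were 109 to 147 CPM in dorsal and 121 to 157 CPM in ventral libraries, where Slc32a1 was at 0. The part of these markers in the differences was not tested. The Efna5 call was lost without replicate 2 or 3 of dorsal or ventral CA3, dorsal DG replicate 1 or ventral DG replicate 3 (adjusted p = 0.0555 to 0.184). Epha7 was not called in any of the 3 region contrasts, at -0.28 for CA1 over CA3, -0.43 for CA1 over DG and -0.15 for CA3 over DG. DESeq2 called Epha7 lower in CA1 than in DG (adjusted p = 0.0454).

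Across the depth of the CA1 cell layer, superficial over deep cells gave 3 calls of 8 members tested, beside 2.48% of all genes, 0.886% higher and 1.6% lower, and 20.1% with libraries fully apart. Epha3 had 46.1, 30.0 and 39.1 CPM in superficial and 8.58, 9.62 and 7.24 CPM in deep cells, a log2 fold change of 2.14 ± 0.34 (SE, adjusted p = 0.00570). Epha7 had 831, 906 and 819.6 CPM in superficial and 679.9, 655 and 611 CPM in deep cells, at 0.36 ± 0.08 (SE, adjusted p = 0.0448). Epha10 ran the other way, with 8.09, 2.53 and 6.66 CPM in superficial and 24.5, 51.0 and 25.7 CPM in deep cells, at -2.59 ± 0.50 (SE, adjusted p = 0.0179). All 3 were separate in every library, but none was called in 1 fit of all 48 libraries (adjusted p = 0.209 for Epha3, 0.785 for Epha7 and 0.0676 for Epha10). The Epha7 call was lost without any 1 of the 6 libraries (adjusted p = 0.0511 to 0.224), and the Epha3 call without superficial replicate 1 (adjusted p = 0.0623). The Epha10 call was lost without any 1 superficial library or deep replicate 2 (adjusted p = 0.0519 to 0.0857). The GABAergic markers summed to 16.6 to 193 CPM in superficial and 256 to 1007 CPM in deep libraries. Epha10 averaged 17.8 ± 8.27 CPM in PV and 11.0 ± 6.57 CPM in SST interneurons (SD, n = 3 each), and other interneuron types were not sampled. The part of GABAergic cells in the superficial and deep differences was not tested.

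Proximal over distal CA1 gave 0 calls of 8 members tested, beside 1.06% of all genes, and 19.3% with libraries fully apart. Of the 8, edgeR gave 4 at an unadjusted p below 0.05, with no share over all genes given at that cut. DESeq2 called 1, Epha10 (adjusted p = 0.0482), beside 591 of all genes. Epha10 had 20.2, 6.62 and 10.2 CPM in proximal and 22.7, 31.6 and 41.9 CPM in distal cells, -1.35 ± 0.45 (SE, adjusted p = 0.187) by edgeR. Proximal libraries were all lower. Epha7 had 610.3, 665 and 649 CPM in proximal and 749, 848 and 899 CPM in distal cells, at -0.35 ± 0.10 (SE, adjusted p = 0.137), and Epha6 311, 244 and 343 CPM in proximal and 377, 382 and 375 CPM in distal cells, at -0.31 ± 0.13 (SE, adjusted p = 0.328). For both, the groups did not overlap and the difference was not called. Epha3 ran the other way, with 21.1, 24.1 and 50.9 CPM in proximal and 7.51, 21.5 and 17.9 CPM in distal cells, at 1.05 ± 0.46 (SE, adjusted p = 0.341), with overlap. The 4 GABAergic markers summed to 2.16 to 249 CPM in proximal and 5.66 to 9.95 CPM in distal libraries. Pvalb was 81.3, 0.0988 and 0.180 CPM in proximal and 10.6, 15.1 and 12.9 CPM in distal libraries. The oligodendrocyte list of 5 genes summed to 28.8 to 228 CPM in proximal and 23.9 to 59.9 CPM in distal libraries, with Mog and Mag at 0 in distal ones. The part of these markers was not tested.

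**Figure D5:**
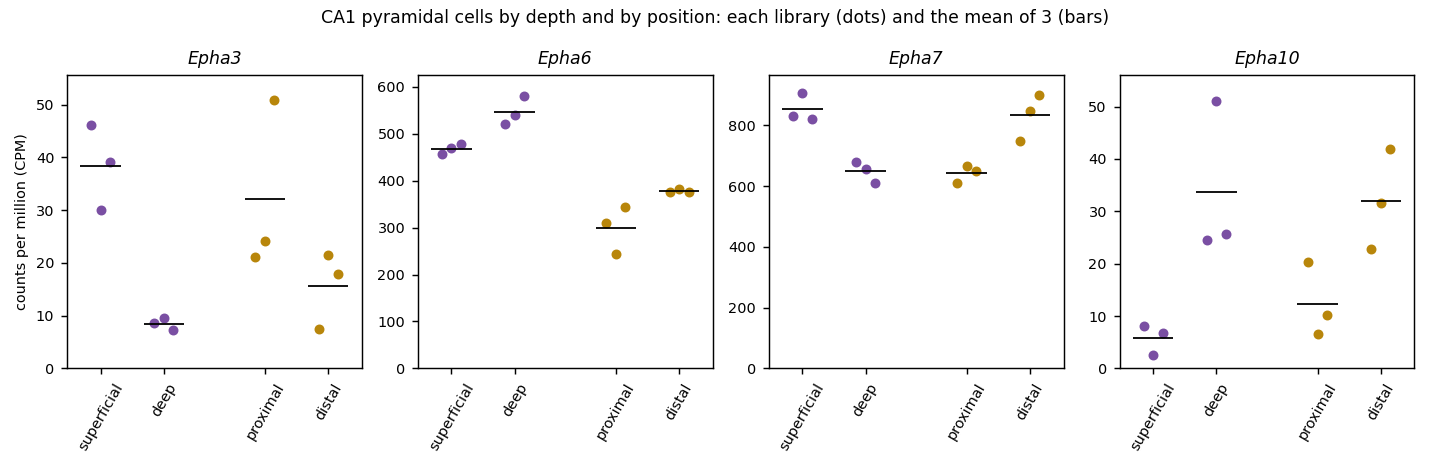
CPM of Epha3, Epha6, Epha7 and Epha10 in each library (dots) of superficial and deep and of proximal and distal CA1 cells, with bars at the mean of 3 and a linear axis from 0. Epha3 averages 38.4 CPM in superficial and 8.48 CPM in deep cells, and Epha10 averages 5.76 CPM in superficial and 33.7 CPM in deep cells.

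The mean receptor sum was lower in ventral CA1 cells picked by their target than in ventral CA1 cells as a whole. No p and no share over all genes is given for this sum. The receptor sum was 130.1 ± 21.6 FPKM in amygdala-projecting and 132 ± 24.0 FPKM in accumbens-projecting cells, against 229 ± 38.6 FPKM in ventral CA1 (SD, n = 3 each), and these libraries did not overlap with the ventral ones. For amygdala-projecting over ventral CA1, 2 of 10 members were called, both lower, beside 2.38% of all genes tested, 0.786% lower, and 25.7% with libraries fully apart. Epha6 had 70.5, 40.5 and 41.6 CPM in amygdala-projecting and 213, 204 and 119 CPM in ventral cells, a log2 fold change of -1.81 ± 0.37 (SE, adjusted p = 0.0158). Epha5 had 46.6, 41.7 and 57.2 CPM in amygdala-projecting and 136, 128 and 101 CPM in ventral cells, at -1.31 ± 0.31 (SE, adjusted p = 0.0323). Both were separate in all libraries. The Epha6 call was lost without amygdala replicate 2 or 3 or ventral replicate 1 or 2 (adjusted p = 0.0770 to 0.110), and the Epha5 call without any 1 of the 6 libraries (adjusted p = 0.0682 to 0.210).

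Accumbens-projecting over ventral CA1 gave 0 calls of 10, beside 2.04% of all genes. In edgeR, 6 members had an unadjusted p below 0.05, a cut at which no share over all genes is given. DESeq2 called 4, beside 694 of all genes, and 1 fit of all 48 libraries called 5, beside 915 of all genes. Epha3 had 0.291, 0 and 0.245 CPM in accumbens-projecting and 11.1, 12.5 and 9.70 CPM in ventral cells, at -5.85 ± 1.67 (SE, adjusted p = 0.0964), or 9 reads in all over the accumbens libraries. Epha6 had 98.6, 49.8 and 41.3 CPM in accumbens-projecting cells, at -1.48 ± 0.37 (SE, adjusted p = 0.0511). Epha6 was called lower with DESeq2 (adjusted p = 0.00356), with no filter (0.000872), in the fit of all libraries (5.41e-05) and with the replicate block (0.0158). Efna5 reached its highest levels here, with 2.44, 27.1 and 17.5 CPM in accumbens-projecting and 1.26, 0.916 and 3.12 CPM in ventral cells, at 3.15 ± 1.15 (SE, adjusted p = 0.210). The accumbens libraries spread widely. Sst was 5.75, 0.367 and 516 CPM in the same accumbens libraries and Gad2 0.872, 0.734 and 37.5 CPM, and their part in the Efna5 values was not tested. Kdr, an endothelial gene, averaged 65.1 CPM in the amygdala group and 35.9 CPM in the accumbens group, against 1.12 CPM in ventral CA1. The endothelial list of 4 genes summed to at least 38.5 CPM in each amygdala library, 12.0 to 54.4 CPM in the accumbens libraries and 0 to 3.93 CPM in the ventral ones, with Cldn5 at 0. The oligodendrocyte precursor list of 2 genes, with Pdgfra at 0, summed to 0.0517 to 19.4 CPM in the amygdala, 7.91 to 28.5 CPM in the accumbens and 0 to 1.62 CPM in the ventral libraries. The CA3 list of 3 genes, with Iyd at 0, summed to 15.2 to 35.6 CPM, 47.99 to 71.4 CPM and 21.0 to 22.2 CPM in the same order. The part of these lists in the differences was not tested.

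Amygdala-projecting over accumbens-projecting cells gave 0 calls of 10, beside 0.0231% of all genes. In edgeR, 2 members had an unadjusted p below 0.05, again without a share over all genes at that cut. DESeq2 called 0, beside 199 of all genes. The fit of all 48 libraries called 1, Epha3 (adjusted p = 0.0131), beside 354 of all genes. The Epha4 mean was 443 ± 62.8 CPM for cells that project to the amygdala and 444 ± 87.7 CPM for those that project to the accumbens, a log2 fold change of -0.01 with a 95% interval of -0.36 to 0.34. Dorsal cells that project to the postsubiculum, set against dorsal CA1, gave 1 call of 8 tested, beside 10.8% of all genes, 5.58% lower, and 33.7% with libraries fully apart. Epha6 had 350.2, 383 and 347 CPM in postsubiculum-projecting and 667, 566 and 583 CPM in dorsal cells, at -0.73 ± 0.10 (SE, adjusted p = 0.00126). The 2 groups were separate, and the call was missed in 1 fit of all 48 libraries (adjusted p = 0.0643). Epha7 had 1069, 977 and 935 CPM in postsubiculum-projecting cells, at 0.04 with a 95% interval of -0.12 to 0.21. Efna5 had 0 reads in the postsubiculum-projecting libraries.

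PV and SST interneurons of CA1 differed from dorsal CA1 pyramidal cells in 7 members each, and no member was called between the 2 interneuron groups. PV over dorsal CA1 gave 7 calls of 10, 6 lower and 1 higher, beside 36.5% of all genes, 17.6% lower and 18.9% higher. SST over dorsal CA1 gave 7 of 9, again 6 lower and 1 higher, beside 30.3% of all genes, 13.9% lower and 16.4% higher. The 2 comparisons share the dorsal CA1 libraries. The microglia list of 4 genes summed to 18.4 to 51.3 CPM in SST interneurons and 0 to 1.23 CPM in dorsal CA1, where Cx3cr1, C1qa and Tmem119 were at 0. The oligodendrocyte list of 5 genes summed to 49.6 to 722 CPM in SST interneurons and 13.6 to 27.4 CPM in dorsal CA1. The CA1 pyramidal list, with Pou3f1 at 0, summed to 92.8 to 133 CPM in PV, 107 to 143 CPM in SST and 1672 to 1864 CPM in dorsal CA1. Slc17a7, Neurod6 and Neurod2, of glutamatergic cells, summed to 1.84 to 2.83, 22.2 to 71.4 and 1431 to 1493 CPM in the same order. The CA3 list summed to 5.74 to 22.3, 68.0 to 189 and 5.90 to 7.62 CPM, with Iyd at 0 in both interneuron groups. The part of these lists in the differences was not tested. Epha4 had 67.2, 42.3 and 70.7 CPM in PV and 54.2, 60.3 and 82.7 CPM in SST interneurons, against 1136, 1186 and 985 CPM in dorsal CA1. Its log2 fold change was -4.18 ± 0.21 (SE, adjusted p = 5.10e-07) for PV and -4.03 ± 0.22 (SE, adjusted p = 7.66e-06) for SST interneurons. No other population was as low in Epha4, the next being ventral DG at 304 ± 36.5 CPM.

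Epha7 (-3.32 in PV, -2.92 in SST), Epha6 (-3.03 in PV, -2.42 in SST) and Epha3 (-1.47 in PV, -2.32 in SST) were also lower in interneurons, as log2 fold changes. The adjusted p was at most 0.00403 for these 6 values, and the PV call of Epha3 was lost in 1 fit of all 48 libraries (adjusted p = 0.121). Epha5 differed least of the called receptors, at -1.16 ± 0.21 (SE, adjusted p = 0.00181) in PV and -1.05 ± 0.26 (SE, adjusted p = 0.0143) in SST interneurons. Its SST call was lost without dorsal CA1 replicate 1 or 3 or SST replicate 1 (adjusted p = 0.0501 to 0.0636). Efna3 was lower in both, at -2.26 ± 0.44 (SE, adjusted p = 0.00293) in PV and -2.40 ± 0.40 (SE, adjusted p = 0.00238) in SST interneurons. Efna5 was the member that was higher, with 7.73, 3.69 and 1.10 CPM in PV and 8.89, 10.2 and 5.61 CPM in SST interneurons, against 1 read in dorsal CA1. The ratio to dorsal CA1 was 318 in PV (95% interval 56.7 to 12616) and 635 in SST interneurons (95% interval 113 to 25117), for counting error only. In these 2 populations Efna5 made up 43.0% (PV) and 51.1% (SST) of the ligand FPKM. PV over SST interneurons gave 0 calls of 10, beside 3.51% of all genes. In edgeR, 1 member had an unadjusted p below 0.05, with no share over all genes given at that cut. DESeq2 called 0 members, beside 1118 of all genes. Pvalb averaged 329 CPM in PV and 25.0 CPM in SST interneurons, and Sst 652 CPM in PV and 4651 CPM in SST interneurons, so the PV libraries also held Sst RNA, whose part was not tested.

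For each member, the 16 populations were also ordered by mean CPM. Of the 15 pairs of neighbours in that order, the libraries did not overlap in 6 for Epha6, in 5 each for Epha4 and Epha5, in 2 each for Epha3 and Epha7, in 1 for Epha10 and in 0 for Epha8, Efna2, Efna3 and Efna5. No such count was made over all genes, so whether these are many or few cannot be said. Epha4 was highest in dorsal CA3 at 1481 ± 71.7 CPM, above all libraries of postsubiculum-projecting CA1. Epha5 was likewise highest in dorsal CA3, at 513 ± 85.9 CPM, and lowest in ventral DG, at 25.1 ± 5.90 CPM. Epha7 was highest in postsubiculum-projecting and dorsal CA1, which overlapped, and lowest in accumbens-projecting CA1, at 43.5 ± 21.5 CPM. Efna3 ran between 76.5 ± 34.3 CPM in accumbens-projecting CA1 and 8.72 ± 4.38 CPM in SST interneurons. Over the 16 population means of log2(CPM + 1), Pearson's r between members was highest for Epha5 and Epha6, at 0.84. It was lowest for Epha7 and Efna5, at -0.86, and Efna5 had few reads in most CA1 libraries. Other pairs lay between, such as Epha5 and Efna3 at 0.04. These values describe points that share libraries and depth. Among 10233 other genes, the most alike were Nckap1 (0.97), Chn1 (0.97) and Pcsk2 (0.97) for Epha4, Lct (0.95), Cadm2 (0.93) and Dclk3 (0.92) for Epha7, and Plekhg1 (0.93) for Epha6. For Epha5 it was Tspan5 (0.90), for Efna3 Cadps2 (0.92), for Efna5 Usp54 (0.90), for Epha3 Emc3 (0.89), for Efna2 Arhgap32 (0.87) and for Epha10 Stxbp2 (0.86).

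A list of 36 genes that act with or below Eph receptors was described by its counts. For dorsal over ventral CA1, 10 of 32 tested were called, 7 higher and 3 lower, beside 15.1% of all genes (7.17% higher, 7.95% lower). The median log2 fold change was 0.26 for the list and -0.01 for all genes. Kalrn, a Rac activator in spines, averaged 1246 ± 28.7 CPM in dorsal and 680.0 ± 58.1 CPM in ventral CA1, at 0.83 ± 0.10 (SE, adjusted p = 1.01e-05). Chn1, whose product α-chimaerin turns Rac off downstream of EphA4, averaged 1519 ± 109.5 CPM in dorsal and 1019 ± 87.5 CPM in ventral CA1, at 0.53 ± 0.09 (SE, adjusted p = 0.000175). Sipa1l1, Ptpro, Rock2, Ptpn11 and Inppl1 were also higher in dorsal CA1. The exchange factors Tiam1 (-1.82 ± 0.26 SE, adjusted p = 4.33e-05), Vav3 (-2.31 ± 0.64 SE, adjusted p = 0.0170) and Vav2 (-2.58 ± 0.77 SE, adjusted p = 0.0274) were lower there. Inppl1 and the Vav genes averaged under 10 CPM in both groups.

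Chn1 was also higher in dorsal than ventral CA3 (0.70 ± 0.10 SE, adjusted p = 9.01e-05) and DG (1.04 ± 0.10 SE, adjusted p = 4.19e-07). In CA3, 5 of 35 list genes were called, 2 higher and 3 lower (Vav2, Tiam1 and Ptpro), beside 4.97% of all genes. In DG, 8 of 35 were called, 6 higher and 2 lower, beside 19.4% of all genes. For postsubiculum-projecting over dorsal CA1, 5 of 32 were called, 2 higher and 3 lower, beside 10.8% of all genes. Anks1b had the smallest p (0.63 ± 0.09 SE, adjusted p = 0.00125), and Chn1 was lower (-0.49 ± 0.08 SE, adjusted p = 0.00366). Chn1 was also lower in amygdala-projecting (-0.89 ± 0.16 SE, adjusted p = 0.00815) and accumbens-projecting cells (-0.84 ± 0.16 SE, adjusted p = 0.0149) than in ventral CA1. It was the single list gene called of 33 tested in each, or 3.03%, near the 2.38% and 2.04% of all genes. Of the list, Kalrn had the smallest p for PV interneurons (-4.24 ± 0.22 SE, adjusted p = 5.22e-07) and Chn1 for SST interneurons (-2.70 ± 0.22 SE, adjusted p = 5.20e-05), both lower than in dorsal CA1. For CA1 over CA3, 9 of 35 list genes were called, 3 higher and 6 lower, beside 13.5% of all genes. Kalrn had the smallest p (0.87 ± 0.07 SE, adjusted p = 2.32e-08), averaging 963 ± 313 CPM in CA1 and 506 ± 63.6 CPM in CA3 (SD, n = 6 each). Next came Ngef, whose product ephexin binds EphA receptors, with 34.0 ± 10.4 CPM in CA1 and 6.68 ± 2.75 CPM in CA3 (SD, n = 6 each), at 2.34 ± 0.23 (SE, adjusted p = 2.08e-07). For CA1 over DG, 17 of 35 list genes were called, 11 higher and 6 lower, beside 33.1% of all genes, led by Anks1b, an adaptor (0.88 ± 0.08 SE, adjusted p = 9.63e-09). For CA3 over DG, 18 of 35 were called, 10 higher and 8 lower, beside 36.5% of all genes, led by the kinase Rock2 (1.15 ± 0.08 SE, adjusted p = 4.68e-10). PV over dorsal CA1 called 21 of 35, 8 higher and 13 lower, beside 36.5% of all genes, and SST over dorsal CA1 20 of 34, 9 higher and 11 lower, beside 30.3%. For dorsal over intermediate and intermediate over ventral CA1, 2 and 5 of 32 list genes were called, beside 4.93% and 5.03% of all genes. For proximal over distal and superficial over deep CA1, 1 of 35 was called in each, beside 1.06% and 2.48% of all genes. The smallest p was that of Kalrn (0.41 ± 0.10 SE, adjusted p = 0.0233), Rock2 (0.35 ± 0.08 SE, adjusted p = 0.0106), Ngfr (3.80 ± 1.51 CPM in proximal and 0 CPM in distal cells, SD, n = 3 each) and Ntrk2 (-0.61 ± 0.09 SE, adjusted p = 0.00432), in the same order.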

How the data were processed

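The series deposited 1 table of counts per gene and 1 table of FPKM values for 48 libraries. Per the labels' protocols, total RNA of sorted neurons received ERCC control RNAs and was amplified as cDNA before sequencing. Per the submitters' processing notes, TopHat2 2.0.6, Cuffdiff 2.1.1, HTSeq and DESeq2 were used, with the builds NCBIM37 and mm9. The authors' deposited counts are raw reads per Ensembl gene, for 37620 genes after 92 ERCC sequences and 5 summary lines were set aside. Reads without a gene or with several made up 22.8% to 48.1% of a library. The authors' deposited FPKM values cover 37607 genes, were taken as given and entered no test. Symbols came from the gene name table given with the reference. Amplification copies cannot be told apart from separate molecules here, so counting intervals cover counting error only, and counts on the log scale are less precise in the shallower libraries.

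Counts were analysed in R 4.3.3 with edgeR 4.0.16, using limma 3.58.1, and with DESeq2 1.42.0 as an alternative. Each comparison was fitted on the groups it names, the CA1 long axis on its 9 libraries, the projection groups together with ventral CA1, and the regions on 18 libraries. The fit used TMM scaling, filterByExpr, a robust quasi-likelihood F test and Benjamini-Hochberg adjustment over all genes tested. The standard error is the log2 fold change divided by the square root of F, and 95% intervals follow from it. CPM values use TMM factors over all libraries. Likeness is Pearson's r of log2(mean CPM + 1), over genes with a highest population mean of at least 10 CPM. The members, the pathway list of 36 genes, the marker lists and the tests were chosen with earlier results of these data known. All 10 members are named, and, from the pathway list, the called gene with the smallest p in the comparisons described for it, with further called genes chosen after their values were seen. The tests were checked on simulated counts with known changes. Alternatives were DESeq2, RLE scaling, no filter, 1 fit of all 48 libraries, each library left out in turn and the replicate number as a block. No library was a copy of another, with a lowest chi-square per degree of freedom of 12.3 between libraries of a group. Overlapping genes were taken from GENCODE vM21 and promoters from RefSeq on GRCm38.p6. These builds differ from that of the counts, so no coordinate was joined to a read.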

Additional observations from a re-analysis of the deposited data

Results flagged for a closer look

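For 4 receptors, the dorsal over ventral difference was tested against that of another region and differed. For Epha5 it was smaller in CA1 than in CA3, with a CA1 minus CA3 difference of -1.79 on the log2 scale (edgeR, adjusted p = 0.00111). Epha5 was also smaller in CA1 than in the DG, at -1.48 (edgeR, adjusted p = 0.00405). For Epha7 it was larger in CA1 than in CA3, at 1.72 (edgeR, adjusted p = 0.0120). For Epha6 it was larger in CA1 than in the DG, at 1.26 (edgeR, adjusted p = 0.00576). For Epha4 it was smaller in CA1 than in the DG, at -0.68 (edgeR, adjusted p = 0.0228, and 0.112 in 1 fit of all 48 libraries). In all 3 regions the dorsal means of these 4 receptors were above the ventral ones. The 5 results share the CA1 libraries. Dorsal libraries were the deeper ones in CA1, and ventral libraries in CA3 and the DG, and the part of depth was not tested.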

How the results depend on the processing

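Of 61 member calls, 42 held under every alternative run, 19 were lost under at least 1, and 0 changed direction. Member counts that moved were as follows. For dorsal over intermediate CA1, 2 calls became 4 with DESeq2, 1 in a fit of all 48 libraries, 1 with the replicate block and 1 to 3 with a library left out. For superficial over deep CA1, 3 became 0 in the fit of all libraries and 0 to 2 with a library left out. For amygdala-projecting over ventral CA1, 2 became 1 with the replicate block and 0 to 2 with a library left out. For accumbens-projecting over ventral CA1, 0 became 4 with DESeq2, 2 with no filter, 5 in the fit of all libraries, 1 with the replicate block and 0 to 1 with a library left out. Proximal over distal CA1 went to 1 with DESeq2, amygdala-projecting over accumbens-projecting CA1 to 1 and postsubiculum-projecting over dorsal CA1 to 0 in the fit of all libraries, and the CA1 minus CA3 difference to 1 with no filter. Dorsal over ventral CA1 ranged from 5 to 8 with a library left out, CA1 over DG from 5 to 8, and the CA1 minus DG difference from 2 to 4.

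Counts over all genes moved in the fit of all 48 libraries to 665 against 1837 for dorsal over ventral CA1, 101 against 599 for dorsal over intermediate, 80 against 611 for intermediate over ventral, 65 against 311 for superficial over deep and 354 against 3 for amygdala-projecting over accumbens-projecting CA1. In that fit they were 926 against 309 for amygdala-projecting and 915 against 265 for accumbens-projecting over ventral CA1, 765 against 1370 for postsubiculum-projecting over dorsal CA1, 438 against 773 in CA3, 1883 against 3010 in DG, 296 against 547 and 792 against 1510 for the CA1 minus CA3 and CA1 minus DG differences, and 1120 against 478 for PV over SST interneurons. DESeq2 gave 591 against 135 for proximal over distal, 736 for superficial over deep, 199 for amygdala-projecting over accumbens-projecting, 748 and 694 for amygdala-projecting and accumbens-projecting over ventral CA1, 2363 for postsubiculum-projecting, 855 and 2394 for the 2 differences between regions and 1118 for PV over SST. With no filter they were 301 for proximal over distal, 511 for superficial over deep, 180 for amygdala-projecting over accumbens-projecting, 662 and 543 for amygdala-projecting and accumbens-projecting over ventral CA1 and 864 for PV over SST. With the replicate block, amygdala-projecting over accumbens-projecting CA1 gave 1. With a library left out, proximal over distal gave 16 to 94, superficial over deep 85 to 280, accumbens-projecting over ventral CA1 64 to 286, amygdala-projecting over ventral CA1 100 to 476, amygdala-projecting over accumbens-projecting CA1 0 to 11, postsubiculum-projecting over dorsal CA1 498 to 1329, dorsal over intermediate CA1 315 to 681, intermediate over ventral CA1 399 to 573, dorsal over ventral CA3 436 to 1002, PV over SST 230 to 683 and SST over dorsal CA1 2580 to 6221. With 1 replicate number left out of all 16 groups, the test of any difference called 8 members and 7491 to 8402 of all genes. The cause of these shifts was not tested.

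In 14 comparisons whose groups share replicate numbers, same-numbered libraries did not deviate together in every pair (r from -0.0865 to 0.161), so the numbers were not used to pair samples. The block also lost the calls of Epha5 for dorsal over intermediate CA1 and amygdala-projecting over ventral CA1 and of Efna3 for dorsal over ventral CA1. Epha8 and Efna5 rest on few reads in most CA1 libraries.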
